A study of Mus musculus with 4 samples.

Results

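The genes described here encode splicing factors and heterogeneous nuclear ribonucleoproteins (hnRNPs). They are the genes of the array whose single platform symbol starts with Hnrnp (or the older Hnrp), Srsf (or Sfrs), Snrp, Sf3a, Sf3b, Prpf, Lsm or U2af, followed by a letter or number where the prefix needs one. This rule, which uses names and no measured value, found 65 of the 14386 genes on named spots: 15 hnRNP, 9 SR protein, 13 Snrp, 7 Sf3, 9 Prpf, 10 Lsm and 2 U2af genes. The samples are CGR8 cells, a mouse embryonic stem cell line, grown as embryoid bodies, the aggregates in which stem cells differentiate. One group is hanging drop embryoid bodies at day 3 and the other at day 10, and each RNA shared its 2-channel arrays with RNA from the undifferentiated day 0 culture. Every group therefore comes from 1 cell line, and no other genotype or agent is named in the labels.

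Each day has 2 arrays, of which the second is labelled a technical replicate, so a day is 1 RNA pair. No test between samples is possible, and no p-value is given. Errors are the SD of 2 technical arrays, and the number of arrays limits the precision. Values are log2 ratios of the 2 channels, centred on each array's median. The labels name neither the numerator channel nor the dyes. Signs are kept as deposited, so a gene on the positive or the negative side cannot be said to have more RNA on one day than on day 0. A gene was called when its log2 ratio reached 1 (2-fold) with a single sign on each array of a day.

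Splicing removes introns from pre-mRNA in the spliceosome. Small nuclear ribonucleoproteins (snRNPs) are its main parts: the U1, U2, U4 and U5 snRNAs each carry a ring of Sm proteins, and U6 carries the related Lsm ring. U1 recognises the 5′ splice site, U2AF and the U2 snRNP with its SF3a and SF3b complexes recognise the 3′ splice site and branch point, and Prp proteins assemble and run the later steps. SR proteins mostly promote, and hnRNPs often repress, the use of nearby exons. In stem cells and early embryos, shifts in these regulators are known to accompany changes in isoform use.

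The members were measured by 146 spots. Of the 65 genes, 58 had 2 spots, 6 had 4 and 1 had 6. Of 584 possible readings, 524 carried a value, so 10.3% were missing, against 12.9% of the readings of all named spots. All 65 members had a value on both day 3 arrays, and 61 on both day 10 arrays. Hnrnpl, Lsm1, Lsm6 and Prpf4b lacked a value on 1 day 10 array. The arrays carried a value at 37471 to 41386 of 46128 spots. Across the members, Pearson r between the technical arrays was 0.625 at day 3 (Spearman rho 0.582, 65 genes) and 0.122 at day 10 (rho 0.224, 61 genes). Across all genes r was 0.271 at day 3 and 0.215 at day 10. Genes are not independent replicates, so these correlations describe the arrays. The SD of 1 array, computed over the members, was 0.44 at day 3 and 0.79 at day 10, so single day 10 values are less certain.

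At day 3 the members beyond 2-fold were all Snrp genes. Snrpe, Snrpg and Snrpb2 lay on the positive side, and Snrpc on the negative side. Thus 4 of 65 members were called, against 2.80% of all 13707 genes measured (1.77% positive, 1.03% negative), and none of the other 52 members without the Snrp prefix was. At day 10, 1 of 61 members, Prpf3, was called, on the negative side, against 3.54% of 13199 genes (2.15% positive, 1.39% negative).

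**Figure D1:**
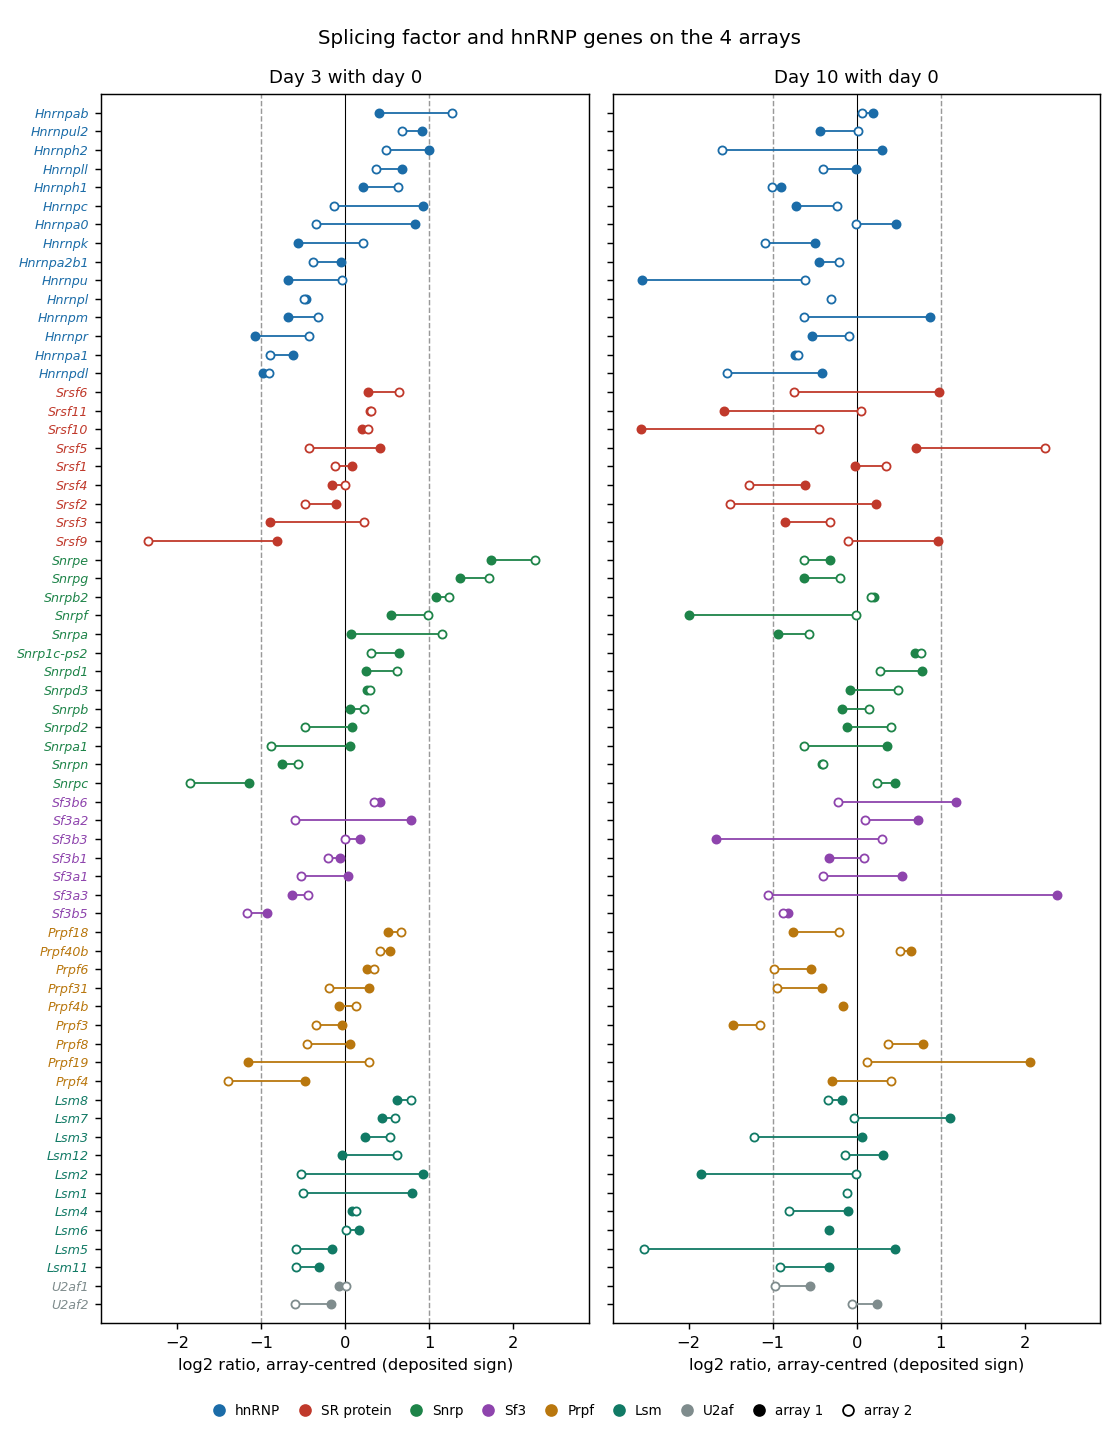
Log2 ratio of each of the 65 members (rows, coloured by prefix group) on array 1 (filled) and array 2 (open) of day 3 (left) and day 10 (right), with a line joining the arrays and dashed lines at -1 and 1. Snrpe, Snrpg and Snrpb2 stand beyond 1 and Snrpc beyond -1 on both day 3 arrays, while many day 10 lines are long, such as those of Sf3a3 (2.38 and -1.06) and Lsm5 (0.45 and -2.53).

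The Snrp genes encode the Sm ring and the proteins particular to the U1 and U2 snRNPs. Snrpe and Snrpg encode the neighbouring ring proteins SmE and SmG. The 2 spots of Snrpe read 1.14 and 2.32 on the first day 3 array and 2.18 and 2.34 on the second. Its mean was 2.0 ± 0.38 (SD, 2 technical arrays, as for all values of genes at a single day here). Snrpg read 1.36 and 1.38 on the first array and 1.65 and 1.77 on the second, a mean of 1.54 ± 0.24. All 8 readings of these genes were beyond 2-fold on the positive side.

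Snrpb2 encodes the U2 protein U2B″, which binds a stem-loop of U2 snRNA. Its spots read 1.06 and 1.09 on the first array and 1.31 and 1.15 on the second, a mean of 1.15 ± 0.11. Snrpc, which encodes a U1 protein that helps to recognise the 5′ splice site, lay on the other side. Its spots read -1.15 and -1.14 on the first array and -1.83 and -1.86 on the second, a mean of -1.50 ± 0.49. Here the 2 spots on an array lay much closer together than the 2 arrays did. Among members with at least 4 readings at day 3, these 4 of 50 had every reading beyond 2-fold on 1 side, against 1.24% of 10247 genes, a rule chosen after the values were seen. At day 10 none of 42 had, against 1.43% of 8622 genes. The percentile of recovered brightness, which ranks at best a lower bound on spot intensity and not intensity itself, was 60.0 for Snrpe, 82.0 for Snrpg, 81.8 for Snrpb2 and 98.5 for Snrpc. The median over the members was 51.8. In RNA of whole cultures, more or fewer cells of a type and more or less RNA per cell cannot be told apart. Processed pseudogenes are common for small snRNP proteins, and spots cannot separate a gene from near-identical copies.

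**Figure D2:**
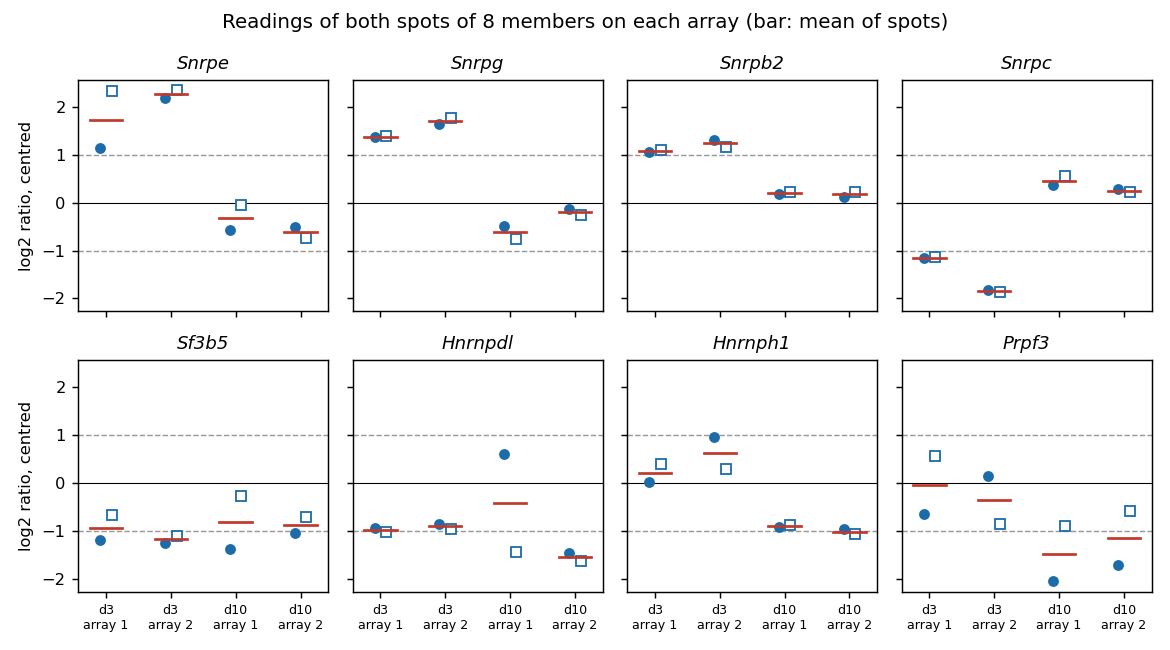
Log2 ratio of each of the 2 spots (circle and square) of 8 members on the 4 arrays, with a red bar at their mean and dashed lines at -1 and 1. The spots of Snrpg, Snrpb2 and Snrpc nearly coincide on each array, whereas the spots of Prpf3 lie apart on every array, for example at -2.05 and -0.90 on the first day 10 array.

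Because these 4 genes were the members called at day 3, the 250 bases before their starts are shown, from the RefSeq promoter table of GRCm38.p6, which held 54 of the 65 members. Capitals mark matches, on either strand, to any of 5 words, and overlapping matches were both counted. The words are the CCAAT box (letters CCAAT), the GC box (letters GGGCGG), the ETS core (letters CCGGAAG), the E-box (letters CACGTG) and the TATA box (letters TATAAA). The name ETS core is used here for that exact word only, and the shorter GGAA at the heart of ETS sites was not counted.
Snrpe, chr1:133610281-133610530, minus strand: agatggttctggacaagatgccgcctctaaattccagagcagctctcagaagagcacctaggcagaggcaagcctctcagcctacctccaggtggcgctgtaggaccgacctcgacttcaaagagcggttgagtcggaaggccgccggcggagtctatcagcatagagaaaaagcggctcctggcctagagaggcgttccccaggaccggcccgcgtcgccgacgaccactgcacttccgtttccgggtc
Snrpg, chr6:86371290-86371539, plus strand: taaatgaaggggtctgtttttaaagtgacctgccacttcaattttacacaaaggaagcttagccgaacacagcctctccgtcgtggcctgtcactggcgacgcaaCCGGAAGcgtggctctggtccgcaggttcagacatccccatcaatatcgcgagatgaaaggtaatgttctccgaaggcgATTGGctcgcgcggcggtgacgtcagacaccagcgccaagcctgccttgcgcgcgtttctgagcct
Snrpb2, chr2:143062819-143063068, plus strand: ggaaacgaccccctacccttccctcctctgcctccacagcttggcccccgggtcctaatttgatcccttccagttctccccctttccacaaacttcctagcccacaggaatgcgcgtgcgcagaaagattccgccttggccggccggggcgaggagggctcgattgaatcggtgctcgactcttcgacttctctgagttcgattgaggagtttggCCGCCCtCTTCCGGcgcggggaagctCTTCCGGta
Snrpc, chr17:27839837-27840086, plus strand: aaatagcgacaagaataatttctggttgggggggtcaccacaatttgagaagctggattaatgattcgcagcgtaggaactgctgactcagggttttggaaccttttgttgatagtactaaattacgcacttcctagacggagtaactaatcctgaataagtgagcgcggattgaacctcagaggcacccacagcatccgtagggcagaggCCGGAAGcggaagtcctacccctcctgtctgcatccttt
The ETS core letters were found in the windows of Snrpg, Snrpb2 (at 2 places) and Snrpc, and none of the 5 words in that of Snrpe. The Snrpe window does hold the shorter GGAA. Since Snrpe held none of the 5 words, no word could be common to the genes on the positive side. A link between the words and the signs was not tested. Among all 32851 promoter windows of this length, 6.91% held the ETS core, 33.8% the CCAAT box, 32.7% the GC box, 12.4% the TATA box and 6.02% the E-box. Of the 73 windows of the 54 members, some of which have several starts, 23.3% held the ETS core, 42.5% the CCAAT box, 61.6% the GC box, 8.22% the TATA box and 5.48% the E-box. The median GC content was 59.6% in the member windows and 52.4% in all, and words rich in G and C share that composition. A match describes letters only.

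The other ring genes lay nearer to 0 at day 3. Snrpf, whose product SmF borders SmE in the ring, had 0.55 and 0.98 (mean 0.76 ± 0.31). Snrpd1 was at 0.44 ± 0.26, Snrpd3 at 0.28 ± 0.03 and Snrpb at 0.14 ± 0.12. Thus 6 of the 8 genes for ring proteins had means above 0, and the exceptions were Snrpd2 at -0.20 ± 0.40 and Snrpn at -0.65 ± 0.14. The median over these 8 genes was 0.36, and 0.44 over all 13 Snrp genes, against 0.01 over all genes. Of the 13 Snrp genes, 9 were above 0 on both day 3 arrays, where 32.9% of all genes were. Of the remaining snRNP-specific genes, Snrpa, for a U1 protein that binds a stem-loop of U1 snRNA, had 0.07 and 1.15, and Snrpa1, for a U2 protein, had 0.06 and -0.89, so their arrays did not agree.

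At day 10 the Snrp genes had no common side, and their median was -0.01. Snrpe read -0.58 and -0.05 on the first day 10 array and -0.51 and -0.73 on the second, a mean of -0.47 ± 0.22. Snrpg was at -0.41 ± 0.30, Snrpb2 at 0.19 ± 0.02 and Snrpc at 0.35 ± 0.15. All 4 were within 2-fold at day 10. Snrpe, Snrpg and Snrpc had changed side, if the channels were divided the same way round at both days. The Snrp genes with the largest means at day 10 were Snrpf at -1.0 ± 1.40 and Snrpa at -0.76 ± 0.26. Snrpf rests on arrays of -2.00 and -0.01, so its mean is smaller than its error.

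Day 10 was also compared with day 3. This goes through the day 0 RNA, assumed here to be the same throughout. It also assumes that the channels were divided the same way round at both days. The labels are silent on both points. Each day 10 array was set against each day 3 array, and a gene was called when these 4 differences all reached 1 with a single sign. This held for 4 of 61 members, against 3.54% of 12654 genes (1.82% positive, 1.72% negative). The difference, day 10 minus day 3, was -2.46 ± 0.43 for Snrpe, -1.95 ± 0.39 for Snrpg and -1.37 ± 0.30 for Hnrnph1, and it was 1.85 ± 0.52 for Snrpc. Snrpb2 differed by -0.97 ± 0.11, just inside the limit.

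Snrp1c-ps2 is listed by RefSeq as a pseudogene and carries Snrp1c, an older symbol of Snrpc, in its name. Its 4 readings at day 3 lay between 0.23 and 1.0, and its mean was 0.47 ± 0.24. At day 10 it was at 0.73 ± 0.05. The spots of Snrpc and of this pseudogene thus lay on opposite sides at day 3 and on the same side at day 10. Whether the pseudogene's spots also bind Snrpc RNA was not tested.

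Snrpn encodes SmN, a ring protein related to SmB that is abundant in neurons, and lies in an imprinted locus. Its 4 spots come from 2 sequence records, and the records gave different values. The spots of its RefSeq mRNA record read -1.62 and -1.60 on the first day 3 array and -1.06 and -1.20 on the second, a mean of -1.37 ± 0.34. Those of the other cDNA record read between -0.25 and 0.28, a mean of 0.07 ± 0.07. At day 10 the RefSeq record was at -0.87 ± 0.03 and the other at 0.05 ± 0.01. The separation was thus present on all 4 arrays, and the gene's mean of -0.65 stands for neither record. Which part of the transcript each record covers was not examined.

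Of the 65 members, 7 were spotted from more than 1 record. Hnrnpr, which encodes an RNA-binding hnRNP abundant in neurons, had one record on the negative side, at -1.04 ± 0.03 at day 3 and -1.68 ± 0.84 at day 10. Its other record was at 1.05 ± 0.23 at day 10 and had 1 reading, 0.74, at day 3. The 2 records stood on opposite sides wherever both were measured. Hnrnpa1, a repressor of exon use and one of the most abundant hnRNPs, had both records on the negative side on all 4 arrays. They were at -0.43 ± 0.24 and -1.09 ± 0.15 at day 3, and at -0.53 ± 0.08 and -0.90 ± 0.12 at day 10. Each record was also counted by itself, an alternative chosen after the values were seen. Then 6 of 72 member records were beyond 2-fold at day 3, 3 on each side, against 2.91% of 14964 records of all genes. The records of Hnrnpr and Snrpn joined Snrpc on the negative side.

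**Figure D3:**
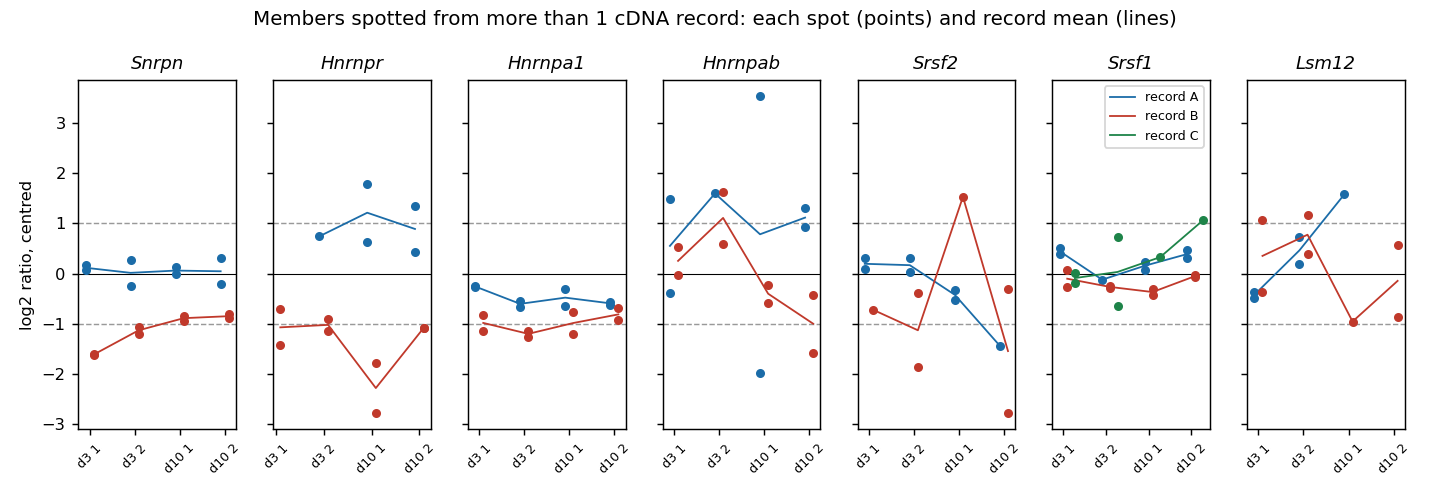
Log2 ratio of every spot (points) and mean per sequence record (lines, records A to C in separate colours) for the 7 members spotted from more than 1 record, on day 3 (d3) arrays 1 and 2 and day 10 (d10) arrays 1 and 2. The records of Snrpn and Hnrnpr stay apart on all arrays where both have values, while the record means of Srsf2, Srsf1 and Lsm12 cross. The spots of 1 Hnrnpab record lie as far apart as 3.55 and -1.98 on 1 array.

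None of the 15 hnRNP genes was called at day 3, and their median was -0.17, with means from -0.94 to 0.84. The lowest was Hnrnpdl, a relative of hnRNP D. Its spots read between -1.02 and -0.85 on both day 3 arrays, a mean of -0.94 ± 0.06. Its day 10 mean, -0.98 ± 0.81, rests on arrays of -0.41 and -1.55, since on the first day 10 array 1 spot read 0.62 and the other -1.43. Hnrnpab, whose product binds RNA and single-stranded DNA, had the highest mean at day 3, 0.84 ± 0.61.

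At day 10 the median of 14 hnRNP genes was -0.40, and 9 of them were below 0 on both arrays, where 30.8% of all genes were. Hnrnph1, whose product binds runs of G near exons, was one of these. It read -0.92 and -0.87 on the first day 10 array and -0.96 and -1.06 on the second, a mean of -0.95 ± 0.08. At day 3 its 4 readings lay between 0.01 and 0.96, a mean of 0.42 ± 0.29, so the days did not overlap. Hnrnpa1, at -0.76 ± 0.20 at day 3 and -0.72 ± 0.02 at day 10, differed between days by only 0.04 ± 0.20. Hnrnpa2b1, its close relative, was at -0.21 ± 0.24 and -0.33 ± 0.17. Hnrnpu, a nuclear scaffold protein, had the lowest day 10 mean of the group, -1.58 ± 1.36, from arrays of -2.55 (1 spot) and -0.62. The day 10 arrays were both below the day 3 arrays for 6 of 14 hnRNP genes, against 22.7% of all genes, and for none were both above, against 20.7%.

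The 9 SR protein genes had a median of -0.01 at day 3 and -0.58 at day 10, and none was called. At day 10 their arrays lay farther apart than those of the other 6 prefix groups, with a median SD of 1.08, against 0.36 over all genes. Srsf9 had -0.81 and -2.35 on the day 3 arrays, and 1 of its spots read 0.28 and -3.48. Srsf5 had 0.71 and 2.24 on the day 10 arrays, a mean of 1.47 ± 1.08, with all 4 readings positive. Srsf10, which can act as a repressor of splicing, had -2.56 (1 spot) and -0.44 there. Srsf6 was the highest at day 3, at 0.45 ± 0.26. Srsf1, a founding member of the family with 6 spots, stayed near 0 at -0.01 ± 0.14 and 0.17 ± 0.26.

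SF3a and SF3b are the complexes that hold the U2 snRNP at the branch point. Sf3b5, a small SF3b subunit, was at -1.05 ± 0.17 at day 3 and -0.84 ± 0.04 at day 10. All 8 of its readings were negative, from -1.37 to -0.26, but 1 day 3 array, at -0.93, kept it inside the limit. The other Sf3 genes lay between -0.54 and 0.37 at day 3. Sf3a3 was the only member beyond 2-fold on opposite sides of a technical pair, a state that 1.48% of all genes shared. It was at 2.38 and -1.06 (1 spot) on the day 10 arrays. Sf3b3 also had opposite signs there, -1.67 (1 spot) and 0.30. Sf3b1, the branch-point-binding subunit, was at -0.13 ± 0.10 and -0.12 ± 0.29.

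Most of the Prpf genes act in the U4/U6.U5 tri-snRNP or in the activated spliceosome. Prpf3, a U4/U6 protein, was the member called at day 10. Its spots read -2.05 and -0.90 on the first day 10 array and -1.72 and -0.59 on the second, a mean of -1.31 ± 0.23, against -0.19 ± 0.22 at day 3. Each array thus had 1 spot within 2-fold and 1 beyond it, and the spot with the smaller array difference gave -0.75. Its brightness percentile was 43.2. Prpf6, which bridges U5 to U4/U6, read 0.30 ± 0.07 at day 3 and -0.77 ± 0.31 at day 10, and Prpf18, a factor of the second catalytic step, 0.58 ± 0.11 and -0.48 ± 0.39. Both had day 10 arrays below the day 3 arrays. Prpf8, the protein at the catalytic centre, went the other way, at -0.20 ± 0.36 and 0.58 ± 0.29. Prpf40b was positive on all 4 arrays, at 0.47 ± 0.08 and 0.58 ± 0.09. Prpf19, a ubiquitin ligase of the spliceosome, had -1.16 and 0.29 at day 3 and 2.06 (1 spot) and 0.12 at day 10. Prpf4, the partner of Prpf3, had -0.47 and -1.39, then -0.29 and 0.41.

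Lsm2 to Lsm8 form the ring of U6, and Lsm1 replaces Lsm8 in the cytoplasmic ring that promotes mRNA decapping. The 10 Lsm genes had a median of 0.17 at day 3, with 8 means above 0, and of -0.52 over 8 genes at day 10, with 6 below 0. None was called at either day. Lsm8 had close arrays at both days, at 0.70 ± 0.12 at day 3 and -0.26 ± 0.12 at day 10. Lsm7 was at 0.52 ± 0.11 and 0.54 ± 0.80. Lsm2 and Lsm5 had the lowest day 10 means, -0.93 ± 1.30 and -1.04 ± 2.11, each from 1 far array, at -1.85 for Lsm2 and -2.53 for Lsm5. Lsm11, which belongs to the U7 snRNP of histone mRNA processing and not to the spliceosome, was below 0 on all 4 arrays, at -0.45 ± 0.19 and -0.62 ± 0.41.

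U2AF binds the 3′ splice site, its large subunit, encoded by U2af2, at the pyrimidine tract and its small subunit, encoded by U2af1, at the terminal AG. U2af1 was at -0.03 ± 0.06 at day 3 and -0.76 ± 0.30 at day 10. U2af2 was at -0.38 ± 0.30 and 0.09 ± 0.21. The day 10 arrays of U2af2, 0.25 and -0.06, lay on either side of 0. Neither subunit was beyond 2-fold.

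**Figure D4:**
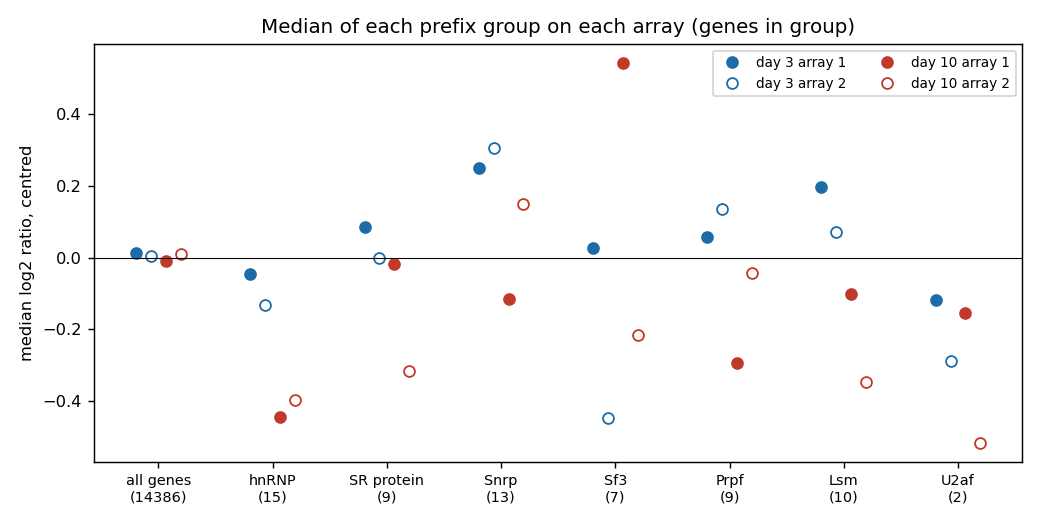
Median log2 ratio of all 14386 genes and of each prefix group (number of genes in brackets) on day 3 arrays (blue) and day 10 arrays (red), array 1 filled and array 2 open. The hnRNP medians of both day 10 arrays lie at -0.44 and -0.40, below those of day 3, while the Sf3 medians of the 2 day 10 arrays lie at 0.54 and -0.22.

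Over all members the median was 0.09 at day 3, against 0.01 over all genes, and -0.31 at day 10, against -0.01. At day 10, 27 of 61 members were below 0 on both arrays (44.3%, against 30.8% of all genes) and 10 above (16.4%, against 30.0%). The members' median on the separate day 10 arrays was -0.17 and -0.22. In the brighter 50% of genes the members' median at day 10 was -0.32, where all genes had -0.14. The day 10 arrays were both below the day 3 arrays for 22 of 61 members, against 22.7% of all genes, and both above for 9, against 20.7%. The median difference between the days was -0.21, against -0.01. At day 3, 27 of 65 members were above 0 on both arrays (41.5%) and 20 below (30.8%, against 31.8% of all genes). These are counts over genes of 1 RNA pair and were not tested.

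**Figure D5:**
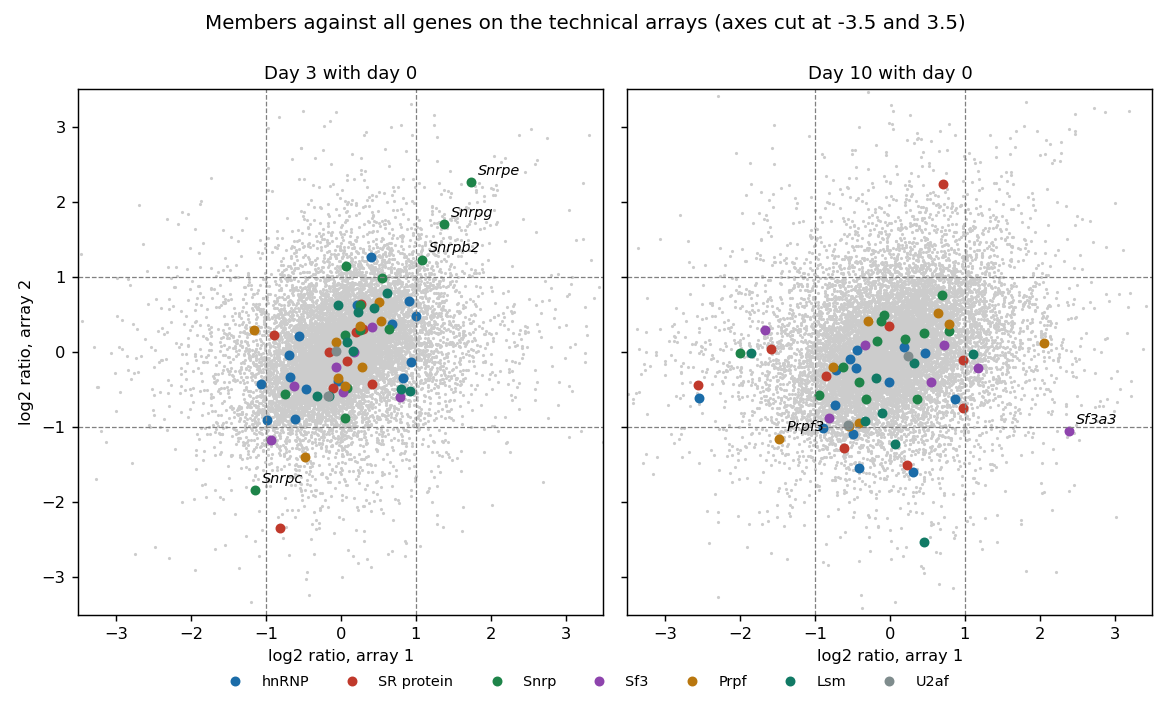
Log2 ratio on array 1 (horizontal) against array 2 (vertical) of day 3 (left) and day 10 (right), for all genes (grey) and the members (coloured by prefix group), with dashed lines at -1 and 1. The 4 called Snrp genes lie in the corners at day 3, Prpf3 alone of the members lies in a corner on 1 side at day 10, and 37 genes at day 3 and 56 at day 10 beyond 3.5 are not drawn.

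A list of 158 further splicing genes was set beside the members, and 128 of them were on named spots. At day 3, 3 of 124 measured were called (2.42%, against 2.80% of all genes), 2 of them with a positive sign. The positive ones, Gemin2 at 1.27 ± 0.05 and Snupn at 1.33 ± 0.11, both serve snRNP assembly. Gemin2 belongs to the SMN complex that loads the Sm ring onto snRNA, and Snupn encodes snurportin, which carries snRNPs into the nucleus. They were 2 of 12 measured genes in the assembly part of that list, whose median was -0.19, with values from -0.67 to 1.33. The negative one was Ddx39b, a helicase of early spliceosome assembly, at -1.68 ± 0.90, from arrays of -2.32 and -1.04, with a brightness percentile of 10.6.

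At day 10, 5 of 118 of these genes were called (4.24%, against 3.54% of all genes), 3 of them with a positive sign. Luc7l, a U1-associated factor, was at 1.36 ± 0.01, Ewsr1, an RNA-binding protein, at 1.36 ± 0.29 and Snrnp25, of the minor spliceosome, at 1.90 ± 0.30. On the negative side were Cwc27 at -1.79 ± 0.38, a cyclophilin-like spliceosome protein, and Son at -1.65 ± 0.48, a large SR-related protein of nuclear speckles. Of 115 measured between the days, 2.61% were called (2 positive, 1 negative), against 3.54% of all genes. Luc7l differed by 1.81 ± 0.16, Wdr77, a partner of the methyltransferase that modifies Sm proteins, by 1.96 ± 0.59, and Snrnp40, of the U5 snRNP, by -1.62 ± 0.43. By part, the day 3 medians were -0.24 for helicases, -0.04 for other snRNP proteins, -0.18 for the Prp19 complex and step factors, -0.33 for exon junction and cap binding, -0.15 for SR-related proteins and kinases, and 0.04 for regulators of alternative splicing. At day 10 they were -0.52, 0.26, -0.19, -0.28, -0.37 and 0.00 in the same order, and 0.18 for assembly.

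Markers of the cells themselves were read on the same arrays. Of the pluripotency markers, all 9 measured at day 3 had negative means, from -2.71 to -0.29, and 1 of 9 was called. At day 10 the 8 measured lay between -1.39 and 1.25, and none was called. At day 3, 1 of 9 endoderm, 1 of 8 cardiac and mesoderm, 1 of 8 neural, 0 of 8 fibroblast and 1 of 5 leukocyte markers were called, and at day 10 none of these was. Their day 3 medians were 0.16, -0.31, 0.29, 0.21 and -0.43, and their day 10 medians 0.37, -0.06, 0.15, -0.22 and 0.14. Ratios do not give levels, so the presence of a cell type cannot be read from them, and the part of cell composition in the members' values was not tested.

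For these genes with 2 spots and every reading present, most alternative settings could not end a call, because a gene called on each array also passes a lower limit, the mean alone or a single array. Restriction to the brighter 50% of genes dropped Prpf3, at a brightness percentile of 43.2. The settings that could end the call of a gene kept were no centring, a common spread for the arrays, and the spot with the smaller array difference. Under these 3, Snrpe was at 1.97, 2.17 and 2.33 at day 3, Snrpg at 1.51, 1.67 and 1.5, Snrpb2 at 1.12, 1.26 and 1.12, and Snrpc at -1.52, -1.63 and -1.49, and all 4 remained called. The differences between days of Snrpe, Snrpg, Snrpc and Hnrnph1 also remained called under the 3. Prpf3 at day 10 remained called without centring (-1.34) and with a common spread (-1.21), but not with the spot choice above. With 1 array left out, a call rests on the array that remains. At day 3 this gave 9 called members without replicate 1 and 6 without replicate 2 (12.8% and 14.4% of all genes). At day 10 it gave 11 without either replicate 1 or replicate 2 (16.2% and 20.4%). Between the days the count was 10 and 7 without day 3 replicate 1 and 2, and 12 and 18 without day 10 replicate 1 and 2. The shares of all genes were 10.0%, 11.3%, 11.9% and 15.4% in that order.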

How the data were processed

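Per the labels, 4 arrays with 2 channels compared embryoid body RNA with day 0 RNA. The deposited values, 1 for each spot of an array, were taken to be log2 ratios. Base 2 was taken from the values: on the first array 60.5% were ratios of whole numbers up to 10000 in base 2 (tolerance 5.5e-10), against 2.11% in base e and 3.10% in base 10. How the authors scanned, corrected and filtered the spots, and which channel they divided by, was not stated in the labels. The array medians before centring were between -0.04 and -0.01.

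Spots were named through the platform's annotation: 32544 had 1 gene symbol, 588 several and 12996 no row. Of the named spots, 480 were left out as controls (5 records printed 96 times each and absent from the mouse RefSeq gene table). The median over all remaining spots was subtracted from each array, then spots were averaged by gene symbol. Where a spot had no value on an array, the gene took the mean of its other spots there. For recovered brightness, each deposited ratio was written with its smallest whole numbers, and the log2 of their geometric mean was averaged by gene and ranked. It is a lower bound on intensity only where a value is a ratio of whole-number intensities. Across the arrays, 59.3% to 62.0% of values were ratios of whole numbers up to 10000. For the rest the brightness need not be a bound, and the percentiles and the brighter 50% carry this limit.

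Genes named are every called member, the 2 largest means of each prefix group at each day, members on opposite sides of a pair, and called genes of the further list. Others named for their values or roles, and the record comparison, were chosen after the values were seen. The members, lists and alternatives were chosen with earlier results of these data known. Python 3.11.15, numpy 2.4.6, pandas 2.3.3 and matplotlib 3.10.9 were used.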

Additional observations from a re-analysis of the deposited data

Results flagged for a closer look

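For 12 of 61 members (19.7%) both day 3 arrays lay on one side of 0 and both day 10 arrays on the other, as they did for 14.0% of 12654 genes. The difference between days was not tested, since each day is 1 RNA pair. It assumes that the day 0 RNA is the same throughout and that the channels were divided the same way round at both days. The differences, day 10 minus day 3, were -2.46 for Snrpe, -1.95 for Snrpg, -1.77 for Snrpf, -1.74 for Srsf10, -1.37 for Hnrnph1, -1.37 for Snrpa, -1.07 for Prpf18, -1.07 for Prpf6, -0.96 for Lsm8, -0.73 for Hnrnpll and -0.56 for Lsm4. Srsf10 and Snrpf had the largest errors of the 12, so their differences are the least certain. The error was 1.44 for Snrpf, against 0.43 for Snrpe and 0.39 for Snrpg. Snrpf had day 10 arrays of -2.00 and -0.01, so it barely changed side on the second. Srsf10 had day 10 arrays of -2.56 (1 spot) and -0.44, and its day 3 arrays each rest on 1 spot, not the same one. Snrpc alone of the 12 went from the negative to the positive side, with 1.85 ± 0.52.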

How the results depend on the processing

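No paired analysis was possible because the labels give the arrays no replicate numbers and each day is 1 RNA pair. No called value changed sign under any alternative. At day 3 the count of called members, 4, became 10 with a 1.5-fold limit (11.7% of all genes) and 7 when each gene kept its most repeatable spot (4.57%), and 6 to 9 with 1 array left out (12.8% to 14.4%). The day 3 median, 0.09, was 0.16 with that spot, 0.21 in the brighter 50% of genes, 0.014 over spots with values on both arrays of the pair, and 0.0031 to 0.085 with 1 array left out. At day 10 the count, 1, became 8 with the 1.5-fold limit (14.0% of all genes), 7 with the limit on the mean alone (10.6%), 4 with the most repeatable spot (5.90%), 0 in the brighter 50% (3.48% of all genes there), 2 over spots on both arrays (3.91%) and 2 with each record counted (3.97%), both alternatives chosen after seeing the data, and 11 with 1 array left out (16.2% to 20.4%). The day 10 median, -0.31, was -0.22 to -0.17 with 1 array left out. Between the days the count, 4, became 13 with the 1.5-fold limit (10.3% of all genes), 19 on the mean alone (16.2%), 10 with the most repeatable spot (6.57%) and 7 to 18 with 1 array left out (10.0% to 15.4%). The median difference, -0.21, was -0.35 with that spot, -0.13 in the brighter 50%, and -0.28 to -0.20 with 1 array left out. A lower limit, the mean alone or fewer arrays asks less of each gene by construction. The cause of the other shifts was not tested. Of the single values of named members, 595 stayed within their array SD under an alternative and 22 moved by more. By construction, leaving out 1 of 2 arrays shifts a mean by less than its SD. For genes with 2 spots, the median over spots is their mean. Many of the 595 were thus fixed in advance, and the tally does not measure stability. No centring, a common spread, the median over spots and genes on all 4 arrays left every count within 1.5 times.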
